A study of Mus musculus with 6 samples.

Results

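Genes that build fatty acids, join them to glycerol and load the triglyceride onto very low density lipoprotein (VLDL) were followed in regenerating mouse liver with and without hepatocyte Socs3. The list was compiled by function, but with earlier results of these data known, so counts over it are descriptive and not an independent test. It holds 32 genes, ordered here by step. The first steps are supply of acetyl-CoA and NADPH, fatty acid synthesis, desaturation, elongation and activation to acyl-CoA. Esterification to triglyceride, VLDL assembly, transcriptional regulation and fatty acid uptake follow. Each gene was read from its brightest probe set that carried 1 gene symbol. Of the 32 genes, 30 passed the filter on low values, a log2 value over 4 in at least 3 arrays, and were tested among 8554 genes in all. The desaturase Scd2 and the acyltransferase Mogat1 did not pass, with log2 values of 3.84 to 3.90 and 2.40 to 2.42 in the Cre plus arrays and 3.80 to 3.88 and 2.42 to 2.52 in the Cre minus arrays.

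Expression was measured on Affymetrix mouse genome-wide arrays, with 2 ug of total RNA from whole liver on each. Cre plus livers came from C57BL/6 mice with both Socs3 alleles floxed and an Alb-Cre transgene, whose albumin promoter limits the deletion to hepatocytes. The Cre minus livers were those of littermates with both alleles floxed and no Cre. Both groups had undergone partial hepatectomy, and liver was harvested 18 hours later. There were 3 arrays in each group, named A, B and C. No Cre-only control and no unoperated liver were among these arrays, and the age and sex of the animals are not given in the sources used here. Whole liver also holds Kupffer, endothelial and other cells, so fewer cells of a type cannot be told apart from less RNA per cell. The labels do not say that each array is a separate mouse, and the p-values measure the spread between these arrays, which may be partly technical.

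Hepatocytes make palmitate from acetyl-CoA, using NADPH, when carbohydrate is plentiful, and they lengthen and desaturate it. Acyl-CoAs are then added stepwise to glycerol-3-phosphate, and the triglyceride is stored in droplets or secreted in VLDL. SREBP-1c, encoded by Srebf1, and ChREBP, encoded by Mlxipl, are the main transcription factors that switch the pathway on after feeding. Liver remnants accumulate lipid droplets early after partial hepatectomy. SOCS3 is induced by cytokines such as IL-6 and in turn dampens their JAK-STAT signal.

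The targeted gene matched the labels in all 6 arrays. Socs3 had log2 values of 7.44, 6.69 and 7.47 in Cre plus arrays A, B and C, against 9.09, 9.30 and 9.24 in the Cre minus arrays. Its log2 difference was -2.01 ± 0.22 (SE, n = 3 arrays each), and limma's adjusted p over all genes was 0.0732. Array profiles correlated at 0.995 within Cre minus, at 0.987 to 0.990 within Cre plus and at 0.982 to 0.993 between the groups. Of 9 tested hepatocyte markers, albumin and all others but Ass1 had group means of at least 11.9 in Cre plus and 11.8 in Cre minus on the log2 scale. Ass1 was near the filter, with 4.83 to 5.06 in Cre plus and 5.04 to 5.17 in Cre minus. That level rests on the only probe set with Ass1 as its single symbol, and no other was there to check it. Cre plus array C stood apart in signal for some fat cell genes, described beside Thrsp. Of the 30 members tested, the lowest of the 6 values was in Cre plus array A for 7 genes, B for 11 and C for 10. The highest value was in Cre plus array A for 3 genes, B for 1 and C for 3. For the rest it was in a Cre minus array, most often Cre minus A and never Cre minus B. The same counts over all genes were not made. Across all genes, the SD was larger in Cre plus for 63.1%.

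Most lipid synthesis genes had lower values without hepatocyte Socs3, and the differences were modest. Of the 30 genes, 24 had a lower mean in Cre plus and 6 a higher one, whereas 53.5% of all genes had a lower mean. The median log2 difference of the 30 was -0.21, against -0.0087 over all genes. No member passed a limma p under 0.05 after Benjamini-Hochberg adjustment over all genes, a threshold that 0.0234% of all genes passed, and the lowest adjusted p among the members was 0.146. At an unadjusted limma p under 0.05, 12 of 30 members (40%) were lower in Cre plus and 0 were higher, where the background over all genes was 8.21% lower and 6.62% higher. The 12 were Acss2, Me1, Elovl3, Elovl5, Elovl6, Acsl5, Gpd1, Gpam, Agpat2, Agpat3, Dgat2 and Mttp.

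Separation of the groups gave a similar count. For 13 of 30 members (43.3%) every Cre plus array lay below every Cre minus array, against 11.9% of all genes, and for 0 members did every Cre plus array lie above, against 9.21% of all genes. The median deviation of the 30 members from the Cre minus mean was -0.22 in Cre plus array A, -0.24 in array B and -0.19 in array C. These medians share the same Cre minus mean, so they are not separate tests of the shift. Over all genes those medians were -0.0048, -0.0050 and -0.028. Deviations were negative for 22, 28 and 24 of the 30 members in arrays A, B and C. Leaving out 1 Cre plus array at a time, the count of lower members was 10 without A, 9 without B and 8 without C, against 6.91%, 10% and 6.34% of all genes. Leaving out 1 Cre minus array, it was 7 without A, 12 without B and 8 without C, against 4.52%, 8.38% and 5.89% of all genes. Acss2, Me1, Agpat2 and Mttp were no longer at an unadjusted p under 0.05 without Cre plus C, nor were Me1, Elovl6, Acsl5, Agpat2 and Mttp without Cre minus A. The median log2 difference of the 30 was -0.18 with Cre plus A left out, -0.24 with B left out and -0.23 with C left out. A set of 6 genes, namely Elovl3, Elovl5, Gpd1, Gpam, Agpat3 and Dgat2, was lower at an unadjusted p under 0.05 in all 16 settings run. The others held in fewer: Acss2 and Elovl6 in 14, Acsl5 in 13, Me1 in 9, Agpat2 in 8 and Mttp in 7. The settings refit the same 6 arrays, and the share of all genes lower in every setting was not counted.

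**Figure D1:**
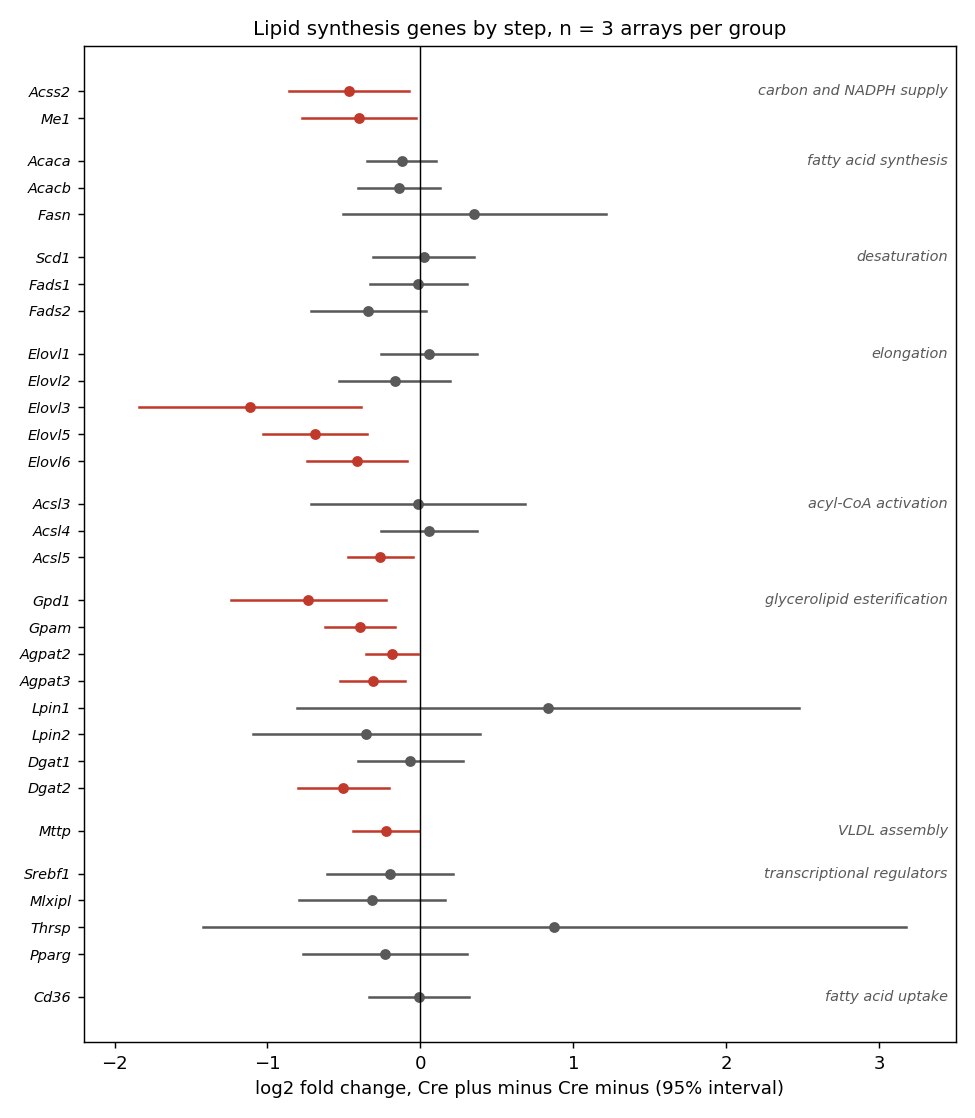
Log2 difference, Cre plus minus Cre minus, of the 30 tested genes by pathway step, with limma's 95% interval (n = 3 arrays per group). Red marks the 12 genes at an unadjusted p under 0.05, all of them left of 0, and grey the other 18, whose differences run from -0.35 to 0.88.

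By step, the 12 comprised both supply genes, 3 of 5 elongases, 1 of 3 acyl-CoA synthetases, 5 of 8 esterification genes and the VLDL assembly gene. None of the 3 fatty acid synthesis genes, 3 desaturases, 4 regulators or the 1 uptake gene was among them. Over all genes 8.21% were lower at the same unadjusted limma p, so absence from so small a step does not show that it was spared. The median log2 difference was -0.43 for supply, -0.42 for elongation and -0.33 for esterification, against -0.12 for fatty acid synthesis and -0.013 for desaturation. Steps hold few genes, and differences between steps were not tested.

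Among the supply genes, Acss2 makes acetyl-CoA from acetate in the cytosol. Its log2 values were 7.82, 7.77 and 7.61 in Cre plus arrays A, B and C, against 8.54, 7.96 and 8.10 in Cre minus. The groups did not overlap, and Cre minus A was the highest array. The log2 difference was -0.47 ± 0.16, with a limma adjusted p of 0.278, and the other kept probe set gave -0.40. Me1 is the cytosolic malic enzyme, a source of NADPH, and had 9.38, 8.96 and 9.27 in Cre plus, against 9.62, 9.39 and 9.81 in Cre minus. Here the highest Cre plus array almost met the lowest Cre minus array, and the difference was -0.40 ± 0.15 (limma adjusted p = 0.313).

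Of the 3 genes of palmitate synthesis, 0 were lower at an unadjusted p under 0.05, against 8.21% of all genes. Acaca encodes the acetyl-CoA carboxylase that makes malonyl-CoA for synthesis, and had 7.24, 6.97 and 7.24 in Cre plus, against 7.24, 7.24 and 7.34 in Cre minus. Its interval ran from -0.35 to 0.10 on the log2 scale. Acacb, whose malonyl-CoA restrains fatty acid entry into mitochondria, had 5.25, 5.24 and 5.26 in Cre plus and 5.28, 5.26 and 5.63 in Cre minus. These groups did not touch, although the arrays other than Cre minus C lay close together, and the difference was -0.14 ± 0.11 (limma adjusted p = 0.592).

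Fasn, the multifunctional synthase that releases palmitate, had log2 values of 8.69, 8.20 and 9.62 in Cre plus arrays A, B and C, against 8.52, 8.36 and 8.57 in Cre minus. Array C was the highest of the 6 and array B the lowest, so the Cre plus arrays bracketed all Cre minus arrays. The log2 difference was 0.35 ± 0.35, with a 95% interval of -0.51 to 1.21 and a limma adjusted p of 0.671. Without Cre plus C it was -0.037.

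Desaturases put double bonds into acyl chains, and their group means lay close together except for Fads2. Scd1, which makes oleate and palmitoleate, had 13.43, 13.35 and 13.82 in Cre plus, against 13.53, 13.43 and 13.57 in Cre minus. Cre plus C was again the highest array and the others overlapped. The difference was 0.022 ± 0.13 (95% interval -0.31 to 0.35) and became -0.12 without Cre plus C. Fads2, which catalyses the first desaturation of essential fatty acids, had 9.67, 9.77 and 9.93 in Cre plus and 10.44, 10.03 and 9.92 in Cre minus. The lowest Cre minus array lay just inside the Cre plus range, and the difference was -0.34 ± 0.15 (limma adjusted p = 0.371), with -0.38 to -0.34 over its 3 kept probe sets. Fads1, the desaturase that acts after Fads2 and an elongase, had a difference of -0.013 ± 0.13 with overlapping groups.

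Elongation held the largest negative difference among the 30 members, that of Elovl3. Elovl3 lengthens saturated and monounsaturated chains, and in mouse liver its level is known to vary with time of day and sex. It had log2 values of 9.73, 10.15 and 8.95 in Cre plus arrays A, B and C, against 10.78, 10.63 and 10.77 in Cre minus. All Cre plus arrays lay below a tight Cre minus group, with array C lowest. Converted from the log2 means, the level in Cre plus was 46.2% of that in Cre minus (95% interval 27.9% to 76.5%), a log2 difference of -1.11 ± 0.30 with a limma adjusted p of 0.206. Without Cre plus C the log2 difference was -0.78, and without Cre plus B it was -1.38.

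Elovl5 lengthens polyunsaturated fatty acids and is a known target of SREBP-1c in mouse liver. It had log2 values of 11.57, 11.62 and 12.04 in Cre plus, against 12.52, 12.32 and 12.46 in Cre minus. The groups were separate, with array C the nearest of the Cre plus arrays to Cre minus. The Cre plus mean was 62.1% of the Cre minus mean (95% interval 49.1% to 78.6%), a log2 difference of -0.69 ± 0.14 with a limma adjusted p of 0.146. The second kept probe set gave -0.74.

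Elovl6 extends palmitate to stearate, and had 7.12, 7.23 and 6.78 in Cre plus, against 7.56, 7.33 and 7.49 in Cre minus. The groups did not overlap, and the difference was -0.42 ± 0.13 (limma adjusted p = 0.259). Its other kept probe sets gave -0.09 each, so the size of the Elovl6 difference depended on the probe set. Elovl2, which acts on the longest polyunsaturated chains, had 11.78, 12.16 and 12.14 in Cre plus against 12.42, 12.07 and 12.09 in Cre minus, with overlapping groups. Elovl1, an elongase of very long saturated chains, had a difference of 0.054 ± 0.13.

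Long-chain acyl-CoA synthetases activate fatty acids before any further use. Acsl5 had log2 values of 10.91, 10.75 and 10.96 in Cre plus, against 11.12, 11.04 and 11.25 in Cre minus. All Cre plus arrays were below all Cre minus arrays by a small margin, with a difference of -0.26 ± 0.09 (limma adjusted p = 0.273). Acsl3, a synthetase found on lipid droplets, had 7.78, 7.92 and 6.90 in Cre plus and 7.79, 7.45 and 7.41 in Cre minus. Cre plus C alone was low, and the difference of -0.013 ± 0.28 became 0.30 without it. Acsl4, which prefers arachidonate, had a difference of 0.059 ± 0.13.

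Of the 8 tested genes on the way from glycerol-3-phosphate to triglyceride, 7 had a lower mean in Cre plus. At an unadjusted limma p under 0.05, 5 of the 8 (62.5%) were lower, against 8.21% of all genes. Gpd1, the cytosolic dehydrogenase that makes glycerol-3-phosphate, had log2 values of 9.84, 10.15 and 9.45 in Cre plus arrays A, B and C, against 10.79, 10.35 and 10.50 in Cre minus. The groups did not overlap, and array C was lowest. The Cre plus mean was 60.2% of the Cre minus mean (95% interval 42.4% to 85.4%), a log2 difference of -0.73 ± 0.21 with a limma adjusted p of 0.221. The second kept probe set gave -0.80.

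Gpam encodes the mitochondrial acyltransferase that adds the first acyl chain. It had log2 values of 9.96, 9.65 and 9.72 in Cre plus, against 10.15, 10.16 and 10.21 in Cre minus. The Cre minus arrays lay within a narrow band above all Cre plus arrays. The Cre plus mean was 76.0% of the Cre minus mean, a log2 difference of -0.40 ± 0.09 with a limma adjusted p of 0.187, and the second kept probe set gave -0.52.

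Agpat2 and Agpat3 encode acyltransferases that turn lysophosphatidic acid into phosphatidic acid. Agpat3 had 9.94, 9.86 and 10.14 in Cre plus, against 10.35, 10.28 and 10.25 in Cre minus, with no overlap. Its difference was -0.31 ± 0.09 (limma adjusted p = 0.216), and 4 kept probe sets gave -0.36 to -0.31. Agpat2 had 11.47, 11.62 and 11.45 in Cre plus and 11.72, 11.64 and 11.73 in Cre minus. Its groups nearly met at array B of each, and the difference was -0.19 ± 0.07 (limma adjusted p = 0.306), at an unadjusted p under 0.05 in 8 of 16 settings.

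The final acylation to triglyceride is carried out by Dgat1 and Dgat2, unrelated enzymes of which Dgat2 is the one linked to newly made fatty acids. Dgat2 had log2 values of 9.34, 9.74 and 9.37 in Cre plus, against 10.06, 9.93 and 9.98 in Cre minus. The groups were separate, with array B the nearest of the Cre plus arrays to Cre minus. The Cre plus mean was 70.5% of the Cre minus mean (95% interval 57.4% to 86.6%), a log2 difference of -0.50 ± 0.12 with a limma adjusted p of 0.187. The second kept probe set gave -0.51. Dgat1 had 7.05, 6.70 and 6.68 in Cre plus and 7.07, 6.71 and 6.84 in Cre minus, with full overlap and a difference of -0.065 ± 0.14. Whether the difference of Dgat2 exceeded that of Dgat1 was not tested.

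**Figure D2:**
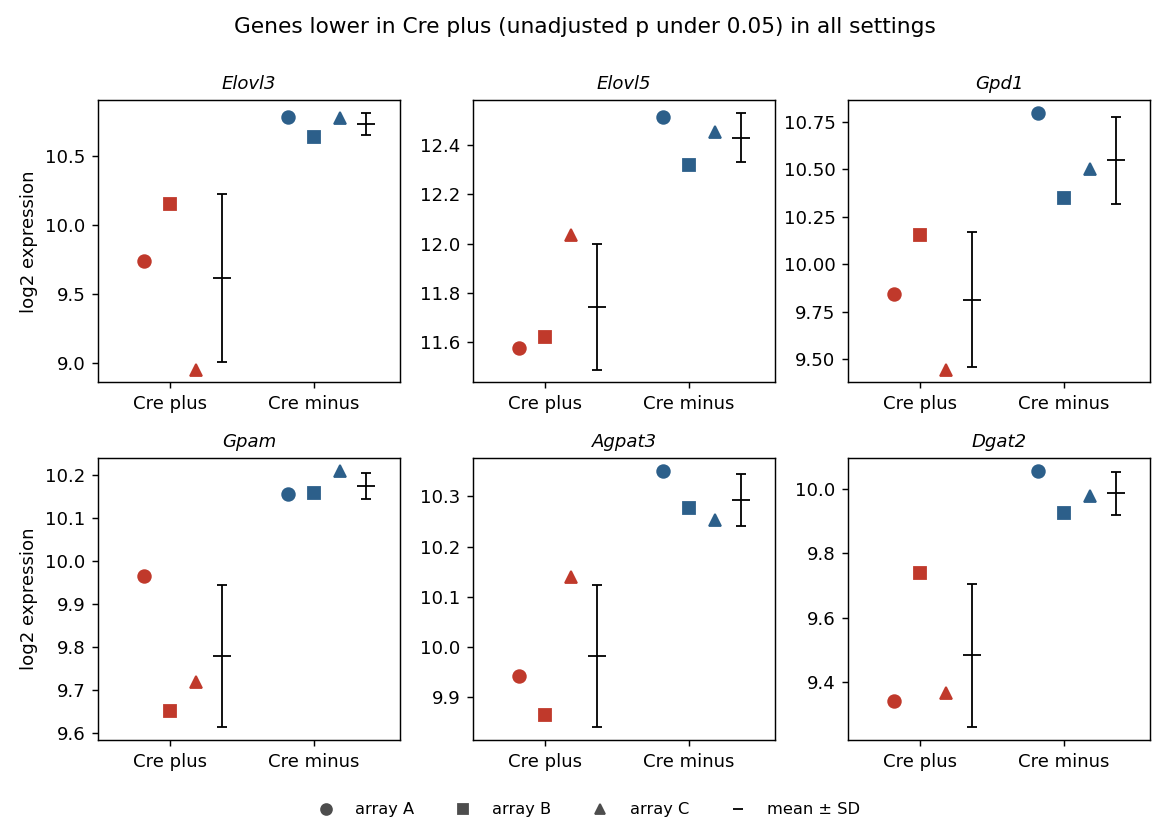
Log2 expression in each array of the 6 genes that were lower in Cre plus at an unadjusted p under 0.05 in all 16 settings (red Cre plus, blue Cre minus, symbols for arrays A, B and C, bars the mean ± SD, n = 3). In each panel every Cre plus array lies below every Cre minus array, a pattern that this choice of genes favours. Vertical scales differ between panels.

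Lipins convert phosphatidic acid to diacylglycerol between the acyltransferase steps, and Lpin1 also acts as a nuclear coactivator. Lpin1 varied widely within both groups, with 8.82, 6.28 and 7.73 in Cre plus arrays A, B and C, against 6.15, 7.29 and 6.90 in Cre minus. Cre plus held both the highest array and an array near the bottom. The log2 difference was 0.84 ± 0.67, with a 95% interval of -0.80 to 2.48 and a limma adjusted p of 0.60. Its second kept probe set, 0.38, followed the same order within Cre plus. With Cre plus A left out the difference was 0.23, and with Cre plus B left out it was 1.5, where Lpin1 was higher at an unadjusted p under 0.05. Array A, the highest for Lpin1, also had a log2 value of 12.4 for the chemokine Cxcl9, chosen after its values were seen, against 5.16 to 7.15 in the other 5 arrays, and of 10.1 for the neutrophil gene S100a8, against 8.19 to 8.54 in the others. The part of either in the Lpin1 value was not tested. Lpin2 had 8.68, 7.98 and 8.58 in Cre plus and 8.26, 8.77 and 9.26 in Cre minus, overlapping, with -0.35 ± 0.30.

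VLDL assembly was represented by Mttp, the transfer protein that loads triglyceride onto apolipoprotein B. Mttp had 11.39, 11.48 and 11.18 in Cre plus, against 11.53, 11.59 and 11.61 in Cre minus. All Cre plus arrays were below all Cre minus arrays, by little for array B. The difference was -0.22 ± 0.09 (limma adjusted p = 0.327), and -0.33 on the second kept probe set. Mttp was not at an unadjusted p under 0.05 after a common-median shift, quantile normalization, a filter at a log2 value of 6 or with a replicate block, nor in 5 of the 6 fits that left out an array. Cd36, a fatty acid translocase of the plasma membrane, had 10.67, 10.34 and 10.63 in Cre plus and 10.76, 10.39 and 10.51 in Cre minus. The Cd36 groups overlapped throughout, with a difference of -0.0090 ± 0.13 and a 95% interval of -0.33 to 0.31.

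Among the 4 regulators none was lower or higher at an unadjusted p under 0.05, against 8.21% and 6.62% of all genes. Srebf1, which encodes SREBP-1, had 7.04, 7.16 and 6.94 in Cre plus, against 7.61, 7.08 and 7.05 in Cre minus. Only Cre minus A stood above the others, and the difference was -0.20 ± 0.17 (limma adjusted p = 0.616). Mlxipl, the glucose-responsive ChREBP, had 7.09, 7.60 and 7.53 in Cre plus and 7.85, 7.39 and 7.92 in Cre minus. Its groups overlapped through Cre minus B, and the difference was -0.32 ± 0.20 (limma adjusted p = 0.50). Pparg, a nuclear receptor that promotes fat storage, had 5.87, 6.33 and 6.22 in Cre plus and 6.79, 6.06 and 6.26 in Cre minus, with overlap and -0.23 ± 0.22.

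Thrsp, the thyroid hormone responsive protein known as Spot 14, follows lipogenic activity in liver and fat. It had log2 values of 7.94, 7.03 and 10.79 in Cre plus arrays A, B and C, against 7.70, 7.71 and 7.71 in Cre minus. Array C stood far above the other 5, array B was lowest, and the Cre minus arrays were nearly equal. On the linear scale array C was 8.49 times the Cre minus mean, array A 1.17 times and array B 0.62 times. The log2 difference was 0.88 ± 0.94, with a 95% interval of -1.42 to 3.18 and a limma adjusted p of 0.692, and it was -0.23 without array C. The second kept probe set had 7.28, 6.25 and 9.91 in Cre plus and 7.31, 6.99 and 7.11 in Cre minus, in the same order within Cre plus.

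Array C was thus the highest of the Cre plus arrays for Thrsp, Fasn and Scd1. Among the 12 lower members it was the lowest for Acss2, Elovl3, Elovl6, Gpd1, Agpat2 and Mttp, but the highest Cre plus array for Elovl5, Acsl5 and Agpat3. It was also the array with the highest signal for some fat cell genes, while others did not follow. The adiponectin gene Adipoq had log2 values of 2.55, 2.57 and 4.08 in Cre plus arrays A, B and C, against 2.57, 2.58 and 2.57 in Cre minus. Cidea, a droplet protein of brown fat and of fatty liver, had 2.04, 2.05 and 4.13 in Cre plus and 2.06, 2.06 and 2.05 in Cre minus. Ucp1, the brown fat uncoupler, chosen after its values were seen, had 3.60, 3.61 and 5.26 in Cre plus and 3.61 in each Cre minus array. In all 3 genes array C alone lay above a level common to the other 5 arrays.

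The fat cell marker list had 10 genes, 7 of them with a probe set and 3 above the filter. Its mean log2 level was 4.63, 4.09 and 5.24 in Cre plus and 4.67, 4.54 and 4.57 in Cre minus, and the hormone genes Lep and Retn were at the bottom of the scale in all 6 arrays. Of the 3 above the filter, the hormone-sensitive lipase gene Lipe had 5.15, 5.16 and 5.09 in Cre plus and 5.20, 5.16 and 5.27 in Cre minus, with array C the lowest of the 6. Fabp4, which is also expressed by endothelium and macrophages, had 10.98, 10.03 and 11.27 in Cre plus and 11.27, 10.54 and 10.53 in Cre minus, with Cre plus C and Cre minus A about equal. Cidec, also on the list, had 7.19, 4.09 and 7.51 in Cre plus and 7.04, 6.86 and 7.06 in Cre minus. Both Cre plus A and C lay above the Cre minus arrays, and array B was far below them. The part of fat tissue RNA in the Thrsp, Fasn and Scd1 values of array C was not tested. Without that array 8 of 30 members were lower in Cre plus at an unadjusted p under 0.05, against 6.34% of all genes, and 0 were higher.

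**Figure D3:**
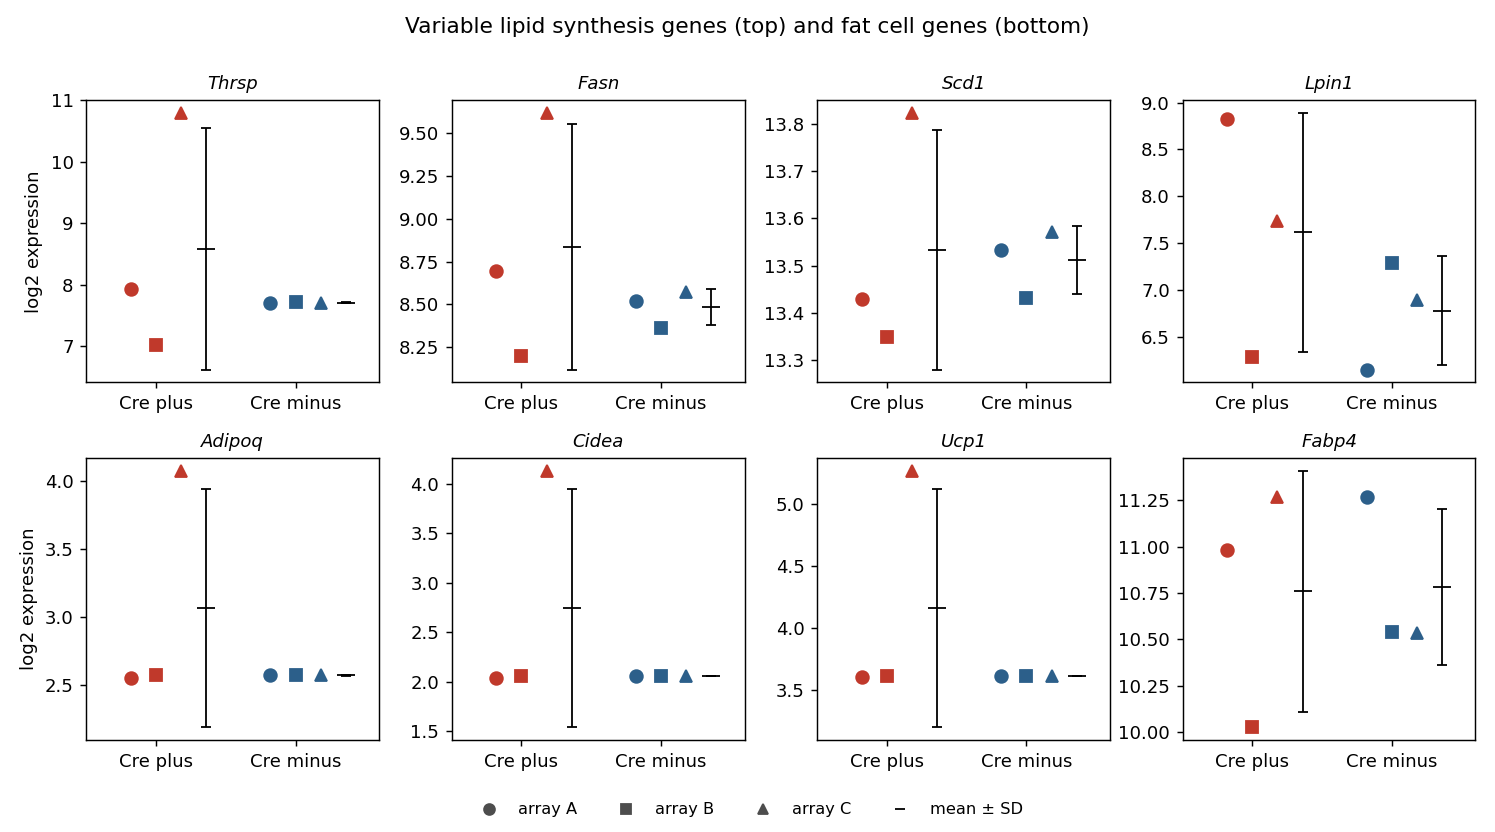
Log2 expression in each array of 4 lipid synthesis genes that varied within Cre plus (top) and 4 fat cell genes (bottom), with symbols for arrays A, B and C and bars the mean ± SD (n = 3). Cre plus C is the highest array for Thrsp, Fasn, Scd1, Adipoq, Cidea and Ucp1, while Lpin1 is highest in Cre plus A.

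The start regions of a few of these genes are shown, since Thrsp and Fasn were high in the same array and Elovl5 and Gpam low in all Cre plus arrays. Each line gives the 110 bases before the RefSeq transcription start on GRCm38.p6, read 5′ to 3′ on the gene's strand. Capitals mark CCAAT or its reverse complement ATTGG, the CCAAT box bound by NF-Y, a factor known to act with SREBP at lipogenic promoters.
Thrsp, chr7:97417551-97417660 (- strand): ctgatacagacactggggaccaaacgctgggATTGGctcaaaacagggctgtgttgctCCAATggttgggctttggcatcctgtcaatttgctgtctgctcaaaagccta
Fasn, chr11:120824548-120824657 (- strand): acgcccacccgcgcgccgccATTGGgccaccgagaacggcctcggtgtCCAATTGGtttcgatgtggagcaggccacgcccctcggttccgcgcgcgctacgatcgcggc
Elovl5, chr9:77917255-77917364 (+ strand): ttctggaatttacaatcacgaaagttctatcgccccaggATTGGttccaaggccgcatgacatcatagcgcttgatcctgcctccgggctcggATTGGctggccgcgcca
Gpam, chr19:55127239-55127348 (- strand): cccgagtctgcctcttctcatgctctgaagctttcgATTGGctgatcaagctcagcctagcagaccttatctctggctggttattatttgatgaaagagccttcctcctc

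Thrsp had 1 CCAAT box on each strand, starting 79 and 52 bases before the start. Fasn had 3 within 90 to 59 bases before the start, 2 of which overlap on opposite strands. Elovl5 had 2 on the reverse strand, 71 and 17 bases before the start. Gpam had 2 windows, and the 1 shown was picked as the window with most CCAAT boxes. That window had 1 box at 74 bases, and the other Gpam window had no CCAAT box in its 250 bases. Over the 250 bases before the start, searched on both strands, a CCAAT box occurred in 33.8% of 32851 RefSeq windows and in 17 of the 36 windows of the members (47.2%). Of the 25 members with a window 15 had one, as did 5 of the 9 lower members with a window. These counts take any window of a gene, so they cannot be set beside the 33.8%, which is per window. The share per gene over all genes was not computed. The E-box CACGTG, which ChREBP and SREBP can bind, occurred in 6.02% of all windows and in those of Elovl5, Lpin2 and Mlxipl. A sterol regulatory element, spelled TCACNCCAC, occurred in 1.05% of all windows and for the members in that of Mlxipl. The STAT element TTCNNNGAA occurred in 7.02% of all windows and in 0 of the 36 member windows. A match is a run of letters and not a tested site, and Scd1, Scd2, Fads1, Elovl3, Gpd1, Dgat1 and Dgat2 had no window here.

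**Figure D4:**
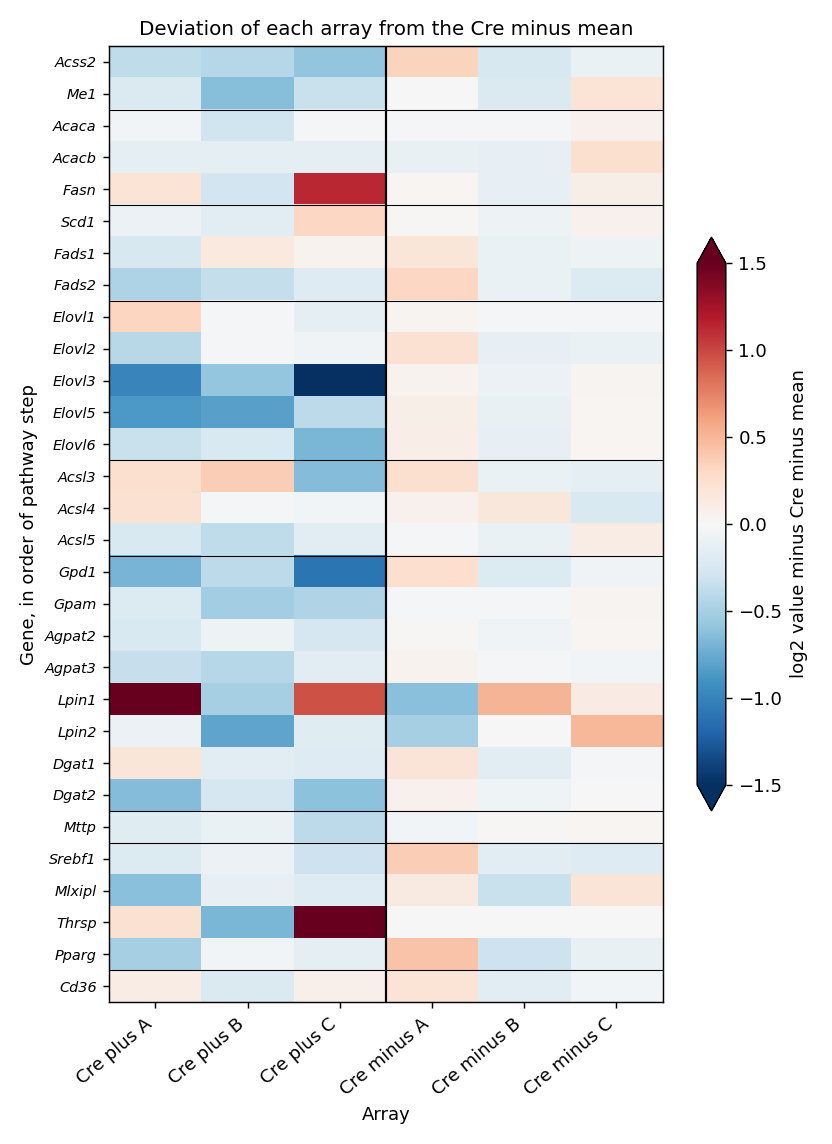
Deviation of each array from the Cre minus mean on the log2 scale for the 30 tested genes (rows, in order of pathway step, with lines between steps) in the 6 arrays (columns, Cre plus left). Elovl3, Elovl5, Gpd1, Gpam, Agpat3 and Dgat2 are blue in all 3 Cre plus arrays, whereas Thrsp and Fasn are deepest red in Cre plus C and Lpin1 in Cre plus A. Colours end at 1.5 in either direction.

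The members also varied more among Cre plus arrays than among Cre minus arrays, as did most genes. The SD was larger in Cre plus for 21 of 30 members (70.0%), against 63.1% of all genes. Of the 12 lower members, 2 had their lowest value in array A, 4 in array B and 6 in array C. Where a member had several kept probe sets, which was so for 18 genes, 4 genes had probe sets of opposite sign, namely Elovl1, Acsl3, Acsl4 and Cd36. All 4 had differences near 0.

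A wider list of 77 other genes of the pathway was read in the same way. Of these, 56 were tested, 13 were below the filter and 8 had no probe set with a single symbol here. There were 38 with a lower and 18 with a higher mean in Cre plus, and the median log2 difference was -0.078. Limma gave 0 of them an adjusted p under 0.05. At an unadjusted p under 0.05 there were 9 lower genes (16.1%) and 4 higher genes, set against the 8.21% and 6.62% of all genes. Complete separation was seen for 12 lower genes (21.4%) and 5 higher ones, against 11.9% and 9.21% of all genes, so the higher count lay near the background. The citrate lyase Acly, which supplies most cytosolic acetyl-CoA, had a log2 difference of 0.063 ± 0.16, with -0.13 to 0.06 over 4 kept probe sets. Apob, the structural protein of VLDL, had 0.0040 ± 0.079, and 0.33 on its second kept probe set.

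Several of the 9 lower genes act beside the members described above. Hacd2, the dehydratase of the elongation cycle, had 9.21, 9.11 and 9.21 in Cre plus, against 9.54, 9.50 and 9.55 in Cre minus, a difference of -0.35 ± 0.06 (limma adjusted p = 0.099), while its second kept probe set gave -0.01. Gpd2, the mitochondrial partner of Gpd1, had -0.47 ± 0.13, with -0.47 to -0.08 over 3 kept probe sets. Slc27a2, a very long chain acyl-CoA synthetase, had -0.29 ± 0.09, and Chpt1, which makes phosphatidylcholine from diacylglycerol, had -0.27 ± 0.06, with -0.41 to -0.18 over 4 kept probe sets. For VLDL, Cideb, a droplet protein needed for VLDL lipidation, had -0.36 ± 0.10 and Sar1b, a GTPase of vesicles that leave the endoplasmic reticulum, had -0.18 ± 0.06.

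Regulators in the wider list had values in both directions. Scap, the escort of SREBP to the Golgi, had 8.86, 8.79 and 8.86 in Cre plus, against 9.15, 9.18 and 9.19 in Cre minus, and a difference of -0.33 ± 0.05 (limma adjusted p = 0.099). Insig2, which holds Scap in the endoplasmic reticulum, had -0.50 ± 0.15, while Insig1, of the same function and itself an SREBP target, had 0.23 ± 0.08. Nr1h3, the sterol receptor LXR alpha that activates Srebf1, had -0.22 ± 0.09. Trib1, a pseudokinase that lowers hepatic lipogenesis in mice, had 6.53, 6.66 and 6.72 in Cre plus, against 5.98, 6.18 and 5.92 in Cre minus, and 0.61 ± 0.09 (limma adjusted p = 0.098). Each of these 5 genes had separate groups.

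The other higher genes were an acyltransferase and a fatty acid carrier. Lpgat1, an acyltransferase of lysophospholipids, had 13.03, 12.97 and 13.31 in Cre plus, against 12.40, 12.39 and 12.46 in Cre minus, a log2 difference of 0.69 ± 0.10 (limma adjusted p = 0.092), with 0.58 to 0.86 over 4 kept probe sets. Fabp5, a cytosolic fatty acid binding protein, had 13.19, 13.05 and 12.93 in Cre plus, against 12.55, 12.22 and 11.93 in Cre minus, and 0.82 ± 0.17. Both were higher in every Cre plus array than in any Cre minus array.

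Markers of Kupffer cells and endothelium had mostly lower values in Cre plus. All 11 tested Kupffer cell and macrophage markers, of 12 listed, had lower values in Cre plus, with a median log2 difference of -0.39. At an unadjusted limma p under 0.05, 7 of them (63.6%) were lower, against 8.21% of all genes. The mean log2 level of the 12 was 7.31, 7.25 and 7.12 in Cre plus and 7.62, 7.52 and 7.52 in Cre minus. Of 9 tested endothelial markers 8 were lower in value, 3 of them (33.3%) at an unadjusted p under 0.05, with a median of -0.24. The 9 tested hepatocyte markers had a median of -0.051, with 6 lower in value. At an unadjusted p under 0.05, 1 of the 9 (11.1%), the urea cycle gene Cps1, was lower, near the share of all genes. Of 9 tested stellate cell and fibroblast markers 5 were higher and 4 lower in value, with a median of 0.061. Only 1 of them, Rgs5, was higher at an unadjusted p under 0.05, against 6.62% of all genes. The 4 kept probe sets of Rgs5 ran from -0.54 to 1.83. Of 6 listed cholangiocyte markers only Sox9 passed the filter, with 0.38 ± 0.23, and 4 were below it. Of 6 listed neutrophil markers S100a8 and S100a9 passed, with 0.49 ± 0.49 and 0.38 ± 0.41, and 3 were below it. Cre plus array A was the highest for Sox9, S100a8 and S100a9. The lymphocyte markers, 7 with a probe set of 8 listed, were below the filter in both groups. The part of cell make-up in the lipid synthesis values was not tested.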

How the data were processed

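Whole liver RNA from 3 Cre plus and 3 Cre minus samples was hybridized to 1 array each. Per the submitters' processing notes, the authors made the deposited log2 values with GCRMA, in a release not given in the sources used here. That method corrects background from probe sequence, normalizes arrays to a common distribution and summarises probe sets, so values near the bottom carry little signal and their differences are compressed. The number of arrays limits the precision.

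Of 45101 probe sets, 64 were controls and left out. Symbols came from the platform annotation, updated through Entrez IDs against RefSeq GRCm38.p6: 34958 probe sets had 1 symbol, 932 several and 9211 none, and only the first were named. Probe sets over a log2 value of 4 in at least 3 of 6 arrays were kept (15563), and the brightest kept one stood for each of 8554 genes. Groups came from the sample titles, and 0 value columns were left unused. Cre plus was compared with Cre minus by limma 3.58.1 in R 4.3.3 (lmFit, eBayes, no block, two-sided), with Benjamini-Hochberg adjustment over all genes. Standard errors and 95% intervals are limma's. The code was tested on simulated data. An exact permutation test of 3 against 3 arrays cannot give a p below 0.1 and was not used.

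The members and all lists were chosen with earlier results of these data known. Every member is named, with values in every array for members at an unadjusted p under 0.05, with separate groups, with a log2 difference over 0.5 in size, highest in their step, or among the regulators. Related genes at an unadjusted p under 0.05 are named with their difference, as are Acly, Apob and Insig1. Alternatives were other normalizations, filters, variance priors and probe set rules, array weights, a replicate block and each array left out. Promoter sequences are those of RefSeq.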

Additional observations from a re-analysis of the deposited data

How the results depend on the processing

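With 3 arrays per group no lipid synthesis gene passed an adjusted p under 0.05 in limma in any of the 16 settings. At an unadjusted p under 0.05, 7 to 12 were lower, against 4.03% to 10.2% of all genes tested. Over the genes tested the median log2 difference was -0.26 to -0.18 with 1 array left out, 7 lower genes were called without Cre minus A, and 0 to 1 genes were higher, the 1 being Lpin1 without Cre plus B. With the letters as a replicate block 10 members were lower, against 7.14% of all genes, and the median of the members was -0.21. Deviations of the same letter correlated at -0.15, -0.10 and 0.02 for A, B and C, and those of different letters at -0.086 to 0.19. With 3 arrays per group these values cannot decide whether the letters pair the arrays. Of 264 values of single genes under the other settings, 8 changed sign, all near 0: Fads1 0.00080 after quantile normalization, Acsl3 0.042, Acsl4 -0.000082 and Cd36 0.033 with all probe sets averaged, Acsl3 0.10 without the less specific probe sets, and Scd1 -0.023, Acsl3 0.080 and Cd36 0.00077 with array weights. With 1 array left out, 15 of 180 changed sign, in 9 genes, whose ranges were -0.21 to 0.30 for Acsl3, -0.053 to 0.14 for Acsl4, -0.089 to 0.095 for Cd36, -0.19 to 0.033 for Dgat1, -0.082 to 0.16 for Elovl1, -0.092 to 0.099 for Fads1, -0.037 to 0.67 for Fasn, -0.12 to 0.11 for Scd1 and -0.23 to 1.66 for Thrsp. The cause was not tested.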

Other observations

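Cidec, a droplet protein of fat cells and fatty liver on the fat cell list, had log2 values of 7.19, 4.09 and 7.51 in Cre plus arrays A, B and C, against 7.04, 6.86 and 7.06 in Cre minus. The low value was in array B alone, the array in which Thrsp, Fasn, Scd1 and Lpin1 also had their lowest Cre plus values. Other members went the other way: Elovl3, Elovl6, Gpd1, Agpat2, Dgat2, Mttp, Srebf1 and Mlxipl, among others, had their highest Cre plus value in array B.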
